A study of Mus musculus with 20 samples.

Results

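The livers described here came from 5 mice with diet-induced obesity that received vehicle, the untreated arm of a study of a statin and an isoprenoid alcohol. They gave 5 of the 20 libraries of the series. The other 15 came from obese mice given rosuvastatin (an inhibitor of cholesterol synthesis), geranylgeraniol (GGOH) or both, with 5 mice in each group, and they enter only as mice in which the same spread could be measured again. Every mouse was of WT genotype and every library was made from liver. No lean mice were analysed here, so no level can be called a mark of obesity, and age, strain, sex, diet composition and hour of sampling are not given in the labels. The 5 libraries were taken by their titles and are called mouse 1 to mouse 5. No effect of a treatment on a gene was estimated and no test between groups was made. Levels are in TPM, a scale corrected for transcript length on which the transcripts of a library share a fixed total. The table held 34933 named genes, of which 16796 were at 0 in all 5 mice, 10141 had a mean of at least 1 TPM and 5720 had a mean of at least 5 TPM.

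The liver makes most of the proteins of blood plasma, and its RNA is dominated by hepatocytes, the cells that also produce bile, urea, glucose, lipoproteins and the enzymes that clear drugs. Mouse hepatocytes additionally secrete the major urinary proteins, small carriers of pheromones that pass through the kidney into the urine, and they carry dense mitochondria whose own genome is transcribed into a few very abundant RNAs. Inflammatory cytokines that reach the liver switch on the acute phase proteins, with serum amyloid A among the most responsive. In whole tissue, fewer cells of a type and less RNA per cell cannot be told apart.

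By the median over genes, mouse 1 deviated most from the mean of the 5 mice, and mouse 3 leaned the same way to a smaller degree. Mice 2, 4 and 5 lay on the other side. Total estimated counts were 16776626 in mouse 1 and between 12947681 and 13776285 in the other 4 libraries. Over the 5720 genes, the median log2 deviation from the mean of the 5 mice was 0.46 in mouse 1 and 0.23 in mouse 3, against -0.21 in mouse 2, -0.22 in mouse 4 and -0.26 in mouse 5. A scaling by the median ratio over genes removes a shift of 0.70 on the log2 scale from mouse 1 and of 0.41 from mouse 3, and of -0.32, -0.27 and -0.44 from mice 2, 4 and 5. The deviations also followed the make-up of the transcripts: across genes, Spearman's rho with GC content was 0.276 and 0.228 in mice 1 and 3 and -0.287, -0.266 and -0.148 in mice 2, 4 and 5. With transcript length it was 0.423 and 0.388 in mice 1 and 3 and -0.288, -0.371 and -0.465 in mice 2, 4 and 5. Genes are not independent replicates and share their libraries, so these values describe the libraries. Whether RNA quality, library preparation or biology lay behind them was not tested, and results that turn on mouse 1 are given with and without it.

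**Figure D1:**
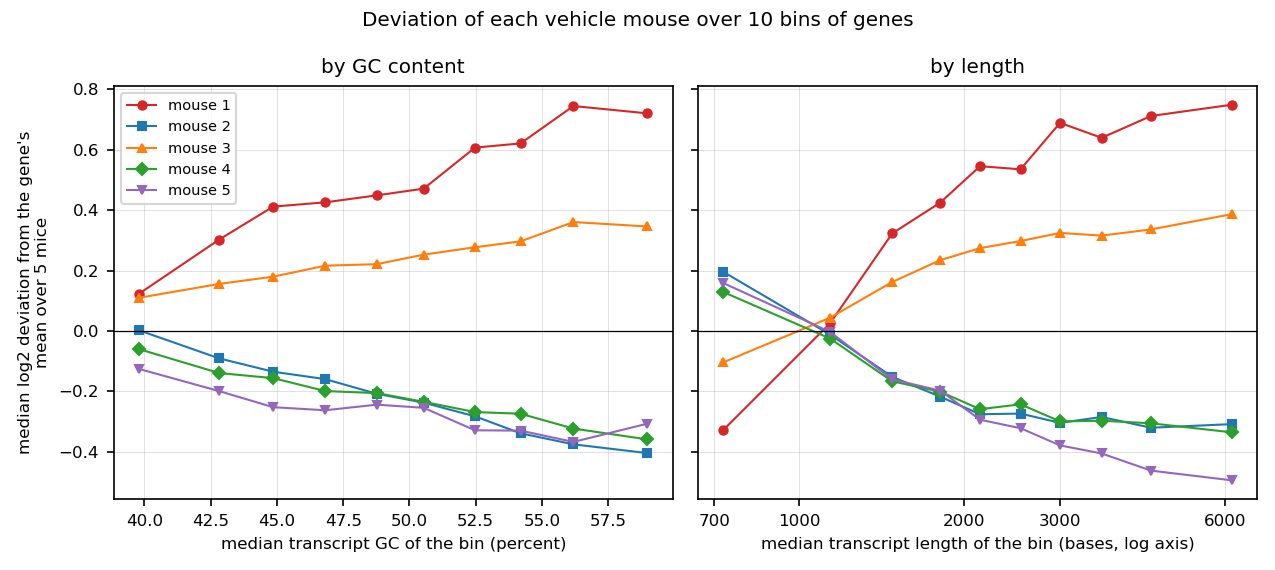
Median log2 deviation of each vehicle mouse from the mean of the 5 mice, over 10 bins of genes by transcript GC content (left) and by transcript length (right, log axis). Mouse 1 climbs to 0.74 in GC-rich bins and to 0.75 in the longest, mouse 3 runs the same way with smaller values, and mice 2, 4 and 5 slope downwards.

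Serum amyloid A and the urinary proteins, abundant families that differed widely between the 5 mice, each consist of close copies. The 250 bases before the start of transcription are shown for 2 members of each, because the copies differ in estimated level while these upstream regions are nearly the same. Those levels depend on how reads were divided between copies, which was not tested. Of the 31-base words in their transcripts, 85.6% for Mup9 and 100% for Mup19 also occur in another gene. For Saa1 and Saa2 the shares are 46.8% and 44.5%. The sequences are RefSeq's on GRCm38.p6, written 5′ to 3′ along the gene. Capitals mark the only match to the motifs searched, the C/EBP motif TTNNGCAA, read on the other strand. Saa1 spans chr7:46742981-46743230 on the minus strand, Saa2 spans chr7:46751583-46751832 on the plus strand, Mup9 spans chr4:60421953-60422202 and Mup19 spans chr4:61782225-61782474, both on the minus strand.
Saa1: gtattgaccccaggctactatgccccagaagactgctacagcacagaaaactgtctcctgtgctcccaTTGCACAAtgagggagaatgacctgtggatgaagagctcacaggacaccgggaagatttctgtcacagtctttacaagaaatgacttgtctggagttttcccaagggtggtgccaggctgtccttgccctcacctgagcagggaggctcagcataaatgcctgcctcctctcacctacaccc
Saa2: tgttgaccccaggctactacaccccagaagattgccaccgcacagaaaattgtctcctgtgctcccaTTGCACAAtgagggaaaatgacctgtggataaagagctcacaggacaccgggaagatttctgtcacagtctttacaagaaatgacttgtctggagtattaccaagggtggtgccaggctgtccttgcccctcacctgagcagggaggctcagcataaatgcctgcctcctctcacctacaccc
Mup9: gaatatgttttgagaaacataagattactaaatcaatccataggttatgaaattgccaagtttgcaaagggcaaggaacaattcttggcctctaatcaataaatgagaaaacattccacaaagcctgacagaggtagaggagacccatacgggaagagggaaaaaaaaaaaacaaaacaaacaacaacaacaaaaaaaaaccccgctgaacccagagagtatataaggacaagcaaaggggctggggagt
Mup19: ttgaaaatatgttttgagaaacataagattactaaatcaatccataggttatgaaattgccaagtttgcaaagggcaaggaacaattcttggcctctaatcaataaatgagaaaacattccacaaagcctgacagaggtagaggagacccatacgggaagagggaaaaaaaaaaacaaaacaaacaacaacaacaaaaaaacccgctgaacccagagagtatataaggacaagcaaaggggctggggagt
The aligned stretches were 94.8% identical between Saa1 and Saa2 and 96.5% identical between Mup9 and Mup19, against 40.7% between Saa1 and Mup9. The C/EBP match began 182 bases before the start of Saa1 and 183 bases before that of Saa2, and no other searched motif overlapped it. C/EBP factors are regulators of liver genes, and TTNNGCAA lay in 25.3% of the RefSeq promoters (250 bases before to 50 after the start, on either strand) of the 100 highest genes, against 10.8% of all promoters. The sequence GTTAAT, part of the motif of the liver regulator HNF1, lay in 14.5% against 7.10%, and TATAAA in 18.1% against 13.6%. Of those 100 genes, 69 had an entry. The clock E-box CACGTG went the other way, with 2.41% against 7.15%. Among genes with a mean of at least 5 TPM, the shares were 9.76% for TTNNGCAA, 5.60% for GTTAAT, 8.28% for TATAAA and 10.2% for CACGTG. Among the 383 of those genes that varied most, defined below, they were 10.4% for TTNNGCAA, 2.37% for GTTAAT, 7.82% for TATAAA and 10.7% for CACGTG. The remaining motifs searched are given for the 100 highest genes against all promoters. CCAAT lay in 48.2% against 37.4% and the HNF4 core CAAAGTCCA in 0% against 0.475%. The sterol element TCACNCCAC lay in 2.41% against 1.24% and an NF-kappaB site in 1.20% against 0.411%. The 100 highest genes had 83 promoters, of which 2 held CACGTG and 12 held GTTAAT. A match is a description of letters and not of binding.

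A small number of genes made up most of the messenger RNA. In falling order of mean TPM, 9 genes held 25% of the transcripts, 29 held 50%, 231 held 75% and 1089 held 90%. Mouse 1 had the least concentrated transcriptome, with 36, 343 and 1649 genes for the last 3 steps, while mouse 5 needed 25, 179 and 788. The 25 highest genes held 47.7 ± 3.37% of all TPM (SD, n = 5), with 42.7% in mouse 1, 46.8% in mouse 2, 47.4% in mouse 3, 51.2% in mouse 4 and 50.4% in mouse 5. Among them were 11 mitochondrially encoded genes, 6 urinary proteins and 3 apolipoproteins. Only 103 genes reached a mean of 1000 TPM.

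**Figure D2:**
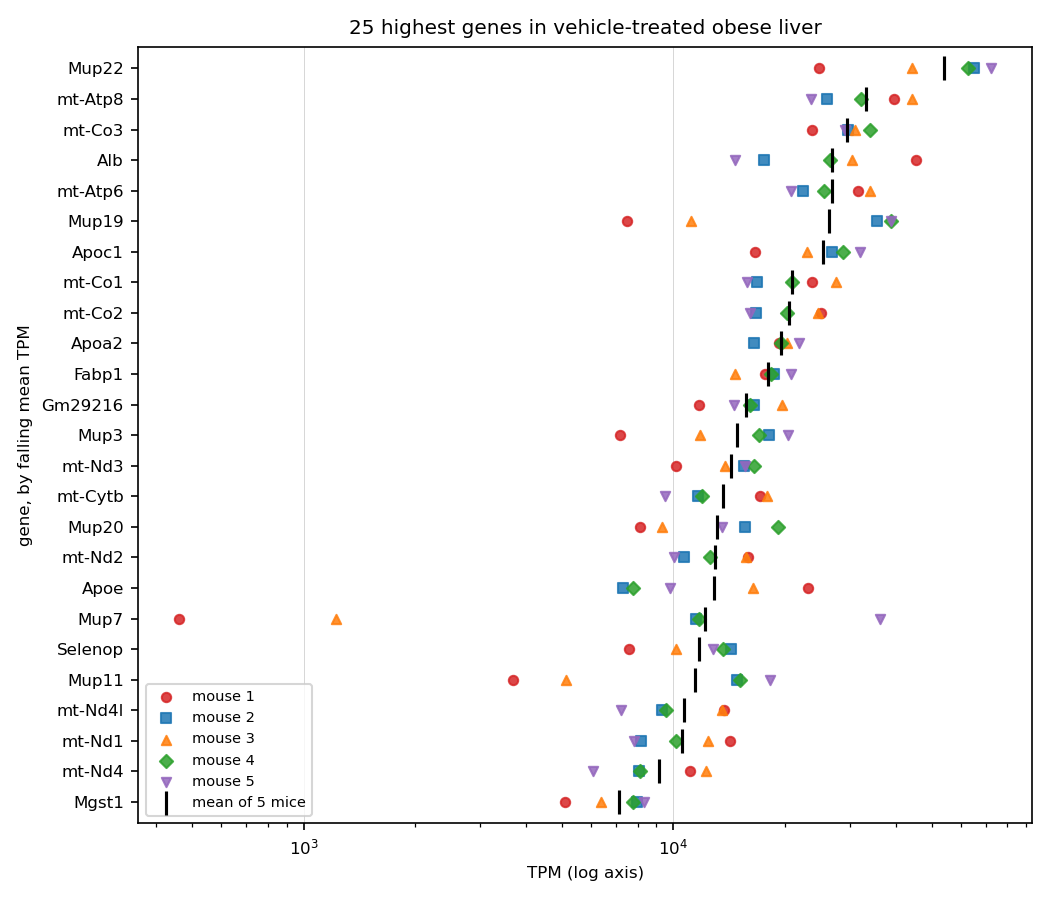
TPM (log axis) of the 25 genes with the highest mean, with 1 symbol per mouse and a bar at the mean of the 5. Mup7 spreads from 461 TPM in mouse 1 to 36094 TPM in mouse 5, whereas Apoa2 and Fabp1 stay within a narrow band.

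The mitochondrial genome supplied the largest block. Its 13 protein-coding genes, which encode subunits of the respiratory chain and of ATP synthase, took 23.2%, 18.1%, 25.4%, 20.9% and 16.7% of TPM in mice 1 to 5, a mean of 20.9 ± 3.57% (SD, n = 5). mt-Atp8, a short subunit of ATP synthase, was second of all genes, with 39557, 26038, 44039, 32227 and 23605 TPM in mice 1 to 5. mt-Co1, of cytochrome oxidase, had 23739.8, 16866, 27489, 20922 and 15840.2 TPM. Both were highest in mouse 3 and lowest in mouse 5. mt-Co3, another oxidase subunit, and mt-Nd3, of the first complex of the chain, ran differently. mt-Co3 had 23706, 29719.5, 30996, 34096 and 29031 TPM and mt-Nd3 had 10148, 15480.1, 13814, 16529 and 15571 TPM, each lowest in mouse 1, where most genes of this genome were high. Gm29216, a nuclear gene model on chromosome 1 annotated as an unprocessed pseudogene, ranked among the top 25 with 11709, 16559, 19660.4, 16075 and 14558 TPM. It was the highest gene outside every function list. Whether its reads came from this locus or from a similar sequence elsewhere was not tested. Length scaling bears on these values, since several of the transcripts are short. As a share of estimated counts, which are not scaled for length, the mitochondrial block was 13.6 ± 1.61% (SD, n = 5).

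The major urinary proteins came next and had the widest range of any block above 2% of TPM. They took 6.04%, 18.9%, 10.05%, 19.1% and 23.4% of TPM in mice 1 to 5, a mean of 15.5 ± 7.17% (SD, n = 5) and a 3.87-fold range. Mup22 on chromosome 4 from 60817589 to 60821463 was the highest gene of the liver, with 24823, 64945, 44267, 62649 and 72387 TPM in mice 1 to 5. Mup19 had 7480.1, 35519, 11178, 38814 and 38694 TPM and Mup3 had 7174, 18095, 11799, 17023 and 20409 TPM. All 3 were lowest in mouse 1 and next lowest in mouse 3. Which copy a read came from is uncertain in this family. Of the 31-base words in their transcripts, every word of Mup22 and Mup19 and 90.02% of those of Mup7 also occur in another gene, against 30.1% of those of Mup3. Alb, Apoc1, Apoe, Fabp1 and Lcn2 share none, so their values do not carry this doubt.

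Plasma proteins and lipoproteins followed. Albumin and the other carriers took 10.1%, 5.84%, 7.84%, 7.17% and 5.40% of TPM in mice 1 to 5. Alb itself, the main protein of plasma, had 45244, 17544, 30417, 26426 and 14661 TPM and was highest in mouse 1. Selenop, which carries selenium, had 7574, 14321, 10167, 13655 and 12779 TPM and was lowest in the same mouse. Trf, the iron carrier transferrin, averaged 5757 ± 2145 TPM, Ttr, a carrier of thyroid hormone and retinol-binding protein, 4855 ± 853 TPM, and Ahsg, the carrier fetuin-A, 3964 ± 2525 TPM (SD, n = 5). The 17 apolipoproteins were among the steadiest large blocks, with 8.51%, 6.87%, 7.98%, 7.46% and 8.20%, a 1.24-fold range. Within that steady sum the members moved apart. Apoc1, a regulator of lipoprotein lipases, had 16669.7, 26904, 22914, 28770.4 and 31979 TPM, lowest in mouse 1. Apoe, a ligand of the hepatic lipoprotein receptors, had 23062, 7315, 16366, 7758 and 9794 TPM, highest in mouse 1. Apoa2, of high-density lipoproteins, had 19319.6, 16561, 20290.4, 19598 and 21858 TPM, a 1.32-fold range. The serpins, plasma protease inhibitors, took 2.79%, 1.19%, 2.13%, 1.65% and 1.35%, with mice 1 and 3 above the others, and were led by Serpina1c, an alpha-1 antitrypsin gene, at 4279.9 ± 1347 TPM. Coagulation factors took 0.297 to 1.04%, with the fibrinogen chain Fgg highest at 1666 ± 873 TPM, and complement and lectins 0.390 to 0.673%, led by C3 at 687 ± 453 TPM.

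**Figure D3:**
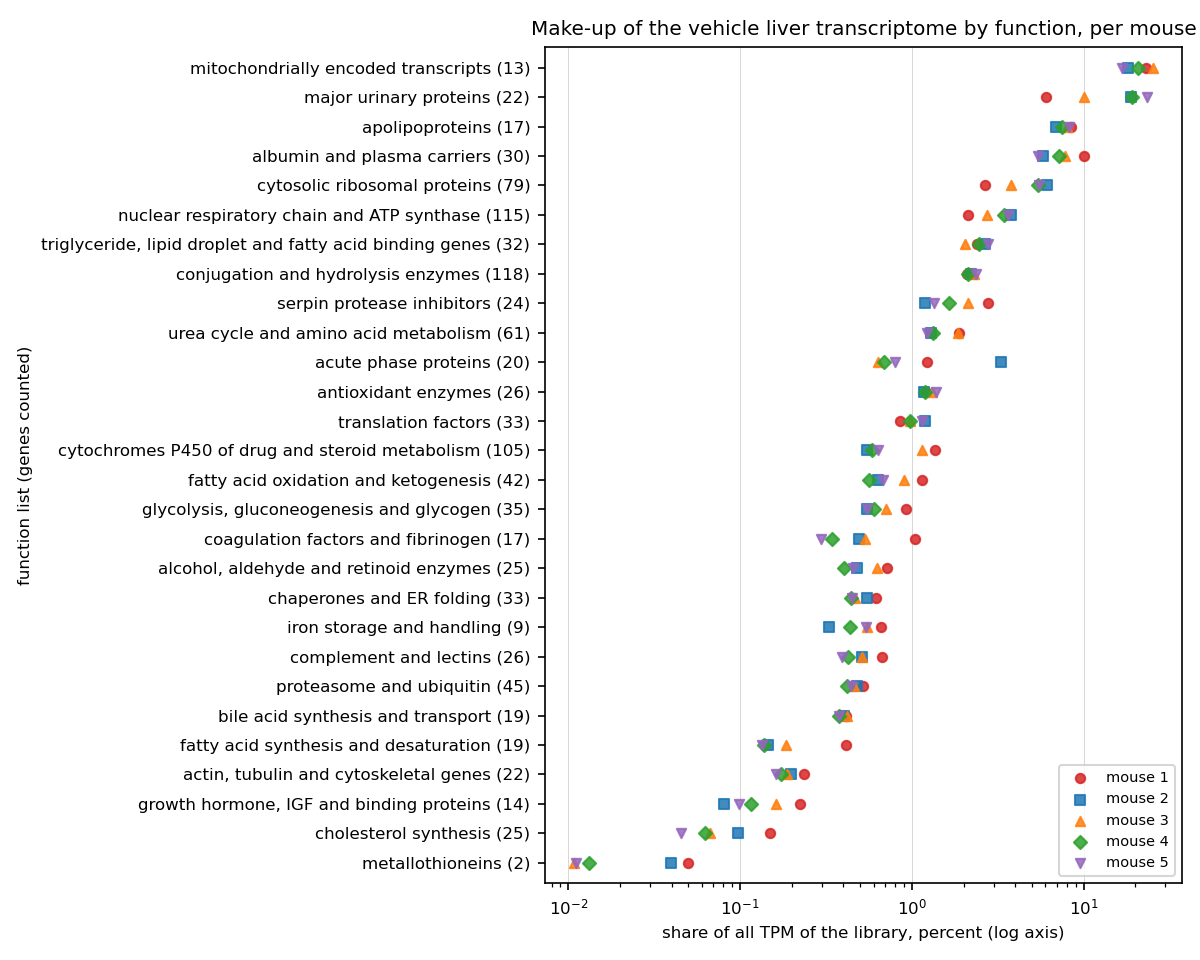
Share of all TPM (percent, log axis) held by each of 28 function lists in each vehicle mouse, with every gene counted in 1 list only and the number of genes in brackets. Urinary proteins run from 6.04 to 23.4% and acute phase proteins from 0.632 to 3.31%, while conjugation enzymes (2.09 to 2.38%) and bile acid genes (0.377 to 0.421%) stay close together.

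Together the 28 lists, 1028 genes, covered 77.3 ± 2.11% of TPM (SD, n = 5). Housekeeping machinery for making protein and energy was the next largest part. The 79 cytosolic ribosomal proteins took 2.68%, 6.12%, 3.798%, 5.42% and 5.52% in mice 1 to 5, and the nuclear genes of the respiratory chain and ATP synthase 2.13%, 3.79%, 2.74%, 3.43% and 3.64%. Both blocks were lowest in mouse 1 and next lowest in mouse 3, and both consist mostly of short transcripts. Rps24 led the ribosomal genes at 2350.1 ± 1169.8 TPM, and Atp5md, a small subunit of ATP synthase, led the nuclear respiratory genes at 1768 ± 778 TPM (SD, n = 5).

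The enzymes that define the metabolic work of the liver took smaller and mostly steady shares. Fatty acid binding and lipid droplet genes held 2.04 to 2.80%, most of it Fabp1, the fatty acid carrier of hepatocytes, at 17689, 18726, 14630.5, 18400.0 and 20849 TPM in mice 1 to 5. Conjugation and hydrolysis enzymes held 2.22 ± 0.117%, led by Mgst1, a membrane-bound glutathione transferase, at 5105, 7970.1, 6387, 7772 and 8339 TPM. Gnmt, which consumes S-adenosylmethionine, averaged 2172 ± 235 TPM. Enzymes of the urea cycle and amino acids held 1.51 ± 0.319%, with Bhmt, which remethylates homocysteine, at 2561 ± 350.2 TPM and Hpd, of tyrosine breakdown, at 1391 ± 407 TPM. Antioxidant enzymes held 1.26 ± 0.0927%, led by the glutathione peroxidase Gpx1 at 4923 ± 1075 TPM. The cytochromes P450 held 1.36%, 0.549%, 1.15%, 0.590% and 0.631%. Cyp2e1, which oxidises ethanol and acetaminophen, was the highest of them with 5898, 1960.5, 4897, 2145 and 2615 TPM. Cyp3a11, the main drug-oxidising member of its subfamily, averaged 992 ± 380.4 TPM. Mice 1 and 3 lay above the other 3 for the P450 sum and for Cyp2e1.

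Lipid and sugar pathways, the ones most often discussed in obese liver, made up little of the RNA. Fatty acid oxidation and ketogenesis held 0.564 to 1.15%. Glycolysis, gluconeogenesis and glycogen genes held 0.545 to 0.924%. Fatty acid synthesis held 0.416%, 0.145%, 0.186%, 0.138% and 0.134% in mice 1 to 5, with mouse 1 apart from the other 4. Scd1, the desaturase that makes monounsaturated fatty acids, had 2655, 905, 969, 724 and 809 TPM and accounted for most of that block. Cholesterol synthesis held 0.149%, 0.0970%, 0.0673%, 0.0628% and 0.0450%, led by Sc5d at 146 ± 66.05 TPM, and its sum was highest in mouse 1 and lowest in mouse 5. As a sum, bile acid synthesis and transport was the steadiest of the 28 lists, at 0.398 ± 0.0203%, with the aldo-keto reductase Akr1c6 at 1563 ± 340.4 TPM and the transporter Slco1b2 at 584 ± 38.7 TPM. Its 19 members were not steadier than other genes. Their median SD of log2(TPM + 1) was 0.48 against 0.45 over all 5720 genes. For 2 of the 19 (10.5%) it was at least 1, against 6.7% of all genes.

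Outside every list, Gm29216 was followed by Cyb5a, the electron carrier cytochrome b5, at 3031 ± 471 TPM, and Wfdc21, a small secreted protein of the whey acidic protein family, at 1047, 4316, 1848, 3051 and 3122 TPM in mice 1 to 5. Gm12338, a processed pseudogene of chromosome 11, had 2313 ± 703 TPM. B2m, the light chain of MHC class I, had 3659.7, 1257, 2888, 1926 and 1739 TPM and was highest in mouse 1, opposite to Wfdc21. Gene models annotated as pseudogenes of any kind held 3.42 ± 0.578% of TPM, of which Gm29216 alone held 1.59%. The origin of reads assigned to such models was not tested.

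Hepatocyte markers stood far above those of other cell types, as the labelled tissue requires. All 10 hepatocyte markers passed a mean of 5 TPM and together held between 2.96 and 7.71% of TPM, with Hnf4a, a regulator of hepatocyte identity, at 116, 20.4, 73.8, 24.5 and 21.8 TPM in mice 1 to 5. Of the macrophage markers, 6 of 10 Kupffer cell genes passed, with C1qb, of the first complement component, at 74.5, 48.2, 59.8, 43.3 and 45.5 TPM and the Kupffer lectin Clec4f at 55.96, 75.8, 40.3, 28.3 and 57.9 TPM. The Kupffer sum held 0.0186 to 0.0373% of TPM, with mouse 1 highest. Clec4g, a lectin of sinusoidal endothelium, had 56.1, 57.03, 60.98, 55.1 and 51.9 TPM, and Dcn, a proteoglycan of stellate cells and fibroblasts, 191, 158, 169.7, 137 and 94.8 TPM. Clec4g was nearly level across the mice, with an SD of 0.08, the lowest of the 5 sinusoidal endothelial markers that passed. Their median SD was 0.55 and the highest 0.78, so Clec4g does not stand for that list. Dcn was lowest in mouse 5. Of 8 markers of lipid-associated macrophages 4 passed, led by Spp1 (osteopontin) at 54.3, 37.8, 36.5, 20.8 and 20.7 TPM. No member of the cholangiocyte, T and NK cell, platelet, pancreatic acinar, skeletal muscle or mesothelial lists reached a mean of 5 TPM. Erythroid markers held 0.324%, 0.510%, 0.159%, 0.468% and 0.299% of TPM, led by Hbb-bs, an adult beta globin, at 1410.2, 3336, 823, 2949 and 1773 TPM. Mouse 3 had the least erythroid RNA. The neutrophil alarmins S100a8 and S100a9 had 2.29, 26.8, 5.06, 14.8 and 13.5 TPM and 3.28, 30.6, 8.39, 14.97 and 13.7 TPM, lowest in mouse 1 and highest in mouse 2. Both Y-linked genes that passed, Eif2s3y at 29.9, 36.9, 38.99, 29.7 and 33.3 TPM and Ddx3y at 18.3, 16.7, 9.53, 11.4 and 13 TPM, were present in every mouse.

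Genes varied between mice by a median SD of log2(TPM + 1) of 0.45, with quartiles of 0.27 and 0.69, over the 5720 genes. The jackknife SE of that median, from leaving out each mouse, was 0.10. A gene with an SD of at least 1 was called variable, and 383 of 5720 genes (6.7%) were. Tmem150a lay just inside with an SD of 1.00081 and Pglyrp2 just outside with 0.999871. Variable genes were 7.60% of those between 5 and 10 TPM, 3.62% of those between 50 and 500 TPM and 4.85% of those above 500 TPM. Most of the variable genes followed mouse 1: 338 of the 383, 88.3%, were highest there, where 61.6% of all 5720 genes were highest. In 324 of the 383, mouse 3 was next, as it was in 54.4% of all genes. By Dixon's ratio at the 95% level, 109 genes (1.91%) had 1 mouse apart from the other 4, and in 37 of them mouse 1 was the high one, in 29 the low one. Variable genes also had a median transcript GC content of 53.8% and a median length of 3154 bases, against 49.7% and 2328 bases over all. By GC content, 2.66% of genes in the lowest of 10 bins were variable, against 13.3% and 11.7% in the top bins.

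Which genes are called variable therefore depends on mouse 1 and on the scale. Without mouse 1, 91 genes (1.59%) had an SD of at least 1, of which 80 were among the 383. After removing the median of each bin of GC content and length, 87 (1.52%) had, of which 52 were shared. After scaling by the median ratio, 247 (4.32%) had, of which 64 were shared. The 183 genes that were variable only after that scaling were lowest in mouse 1 in 168 cases (17.4% of all 5720 genes were), had a median length of 864 bases and included 35 ribosomal proteins and 16 nuclear respiratory chain genes. Rps24 is an example, with 828, 3817, 1553, 2833 and 2719.7 TPM and an SD of 0.87, or 1.36 after the scaling. Across these 4 settings and TMM-scaled CPM, 33 genes passed every time, 22 of them with an assigned name. Of those 22, 14 had at least 20 estimated counts in every mouse: Mup7, Mup12, Mup9, Mup1, Mup14, Saa1, Saa2, Hamp, Hamp2, Lcn2, Rgs16, Sqle, Idi1 and Mt2. This intersection was chosen after the data were seen.

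**Figure D4:**
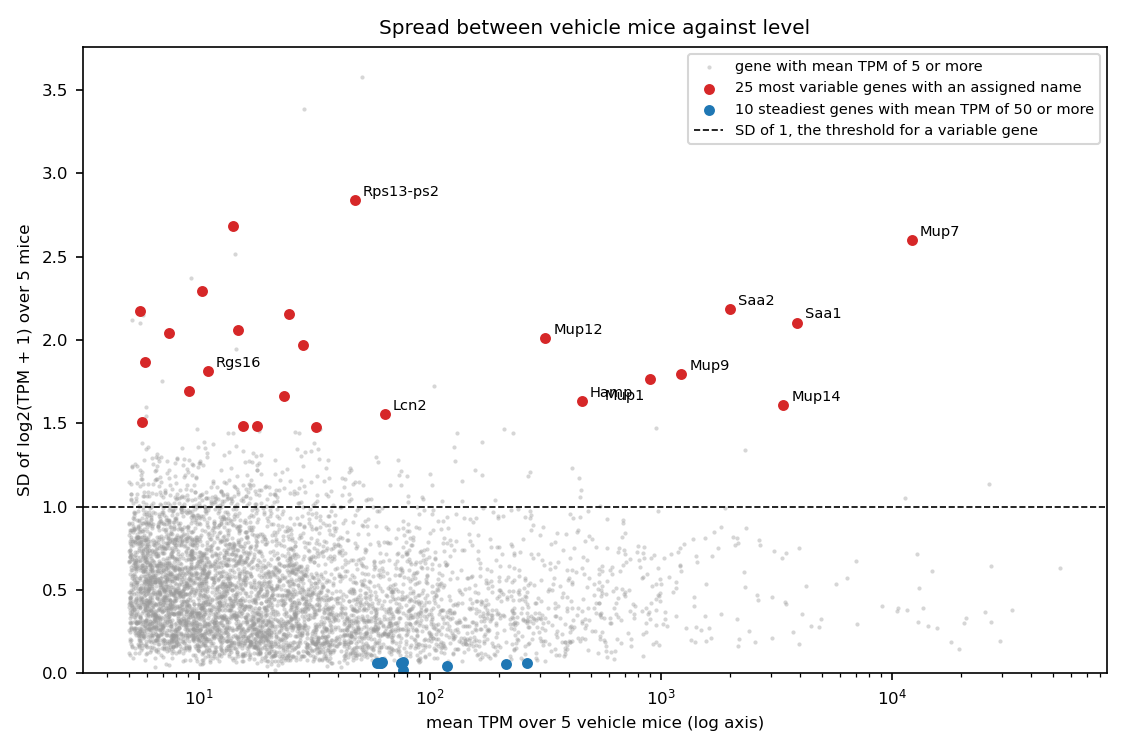
SD of log2(TPM + 1) over the 5 vehicle mice against mean TPM (log axis) for 5720 genes, with the 25 most variable named genes in red and the 10 steadiest in blue. Mup7, Saa1, Saa2, Mup12, Mup9, Mup1, Mup14 and Hamp stand out at high level, far above the dashed line at an SD of 1, and the other red points lie below a mean of 100 TPM.

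The urinary proteins varied widely, and 19 of the 20 members with a mean of at least 5 TPM were lowest in mouse 1 and 13 highest in mouse 5. Of the 20, 10 were variable, 5 without mouse 1, 6 after GC and length bins and 18 after the median-ratio scaling, against 6.7%, 1.59%, 1.52% and 4.32% of all genes, and the median SD of the 20 was 1.01. Mup7 on chromosome 4 from 60066469 to 60070475 had 461, 11509.7, 1225, 11759 and 36094 TPM in mice 1 to 5, an SD of 2.60 with a jackknife SE of 0.66. Mup12 had 22.2, 321, 87.1, 239 and 915 TPM and Mup1 had 106, 946, 248, 692 and 2523 TPM. All 3 were lowest in mouse 1, then in mouse 3, and highest in mouse 5. Mup9, whose promoter is printed above, had 139, 2467, 313, 1653 and 1582 TPM and peaked in mouse 2 instead. Mup14 had 511, 4012, 978, 4699.9 and 6809 TPM, an SD of 1.61. Without mouse 1 the SD was 2.05 for Mup7, 1.39 for Mup12, 1.38 for Mup1, 1.32 for Mup9 and 1.23 for Mup14. Mup20, which encodes darcin, a male pheromone, had 8146, 15604, 9337, 19150.2 and 13527 TPM and an SD of 0.51, and Mup22 an SD of 0.63. In the other 15 mice, taken around the mean of their own group, 10 of the 20 had a pooled SD of at least 1, against 1.1% of all genes. For Mup7 the pooled SD was 2.72.

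Acute phase proteins were also variable as a list. Of 19 members with a mean of at least 5 TPM, 8 were variable, 7 without mouse 1, 7 after GC and length bins and 10 after the median-ratio scaling, against 6.7%, 1.59%, 1.52% and 4.32% of all genes. Which of the acute phase and urinary protein lists varied more depended on the setting. The median SD was 0.98 and 1.01 on TPM and 0.86 and 0.83 without mouse 1. It was 0.93 and 0.68 after GC and length bins, and 1.00 and 1.47 after the median-ratio scaling. The acute phase share of TPM was 1.23%, 3.31%, 0.632%, 0.693% and 0.800% in mice 1 to 5, so mouse 2 held the most. Saa1 on chromosome 7 from 46740497 to 46742980, an acute phase apolipoprotein, had 1607, 14091, 230.3, 1477 and 2065 TPM, an SD of 2.10 with a jackknife SE of 0.91. Its neighbour Saa2 had 1119, 7463, 109, 547 and 758 TPM, an SD of 2.18. Mouse 2 was 61.2-fold above mouse 3 for Saa1 and 68.2-fold for Saa2. Of their 31-base words, 46.8% for Saa1 and 44.5% for Saa2 occur in another gene, so the split between the copies is less certain than their sum. Together they held 0.274%, 2.187%, 0.0342%, 0.205% and 0.287% of TPM in mice 1 to 5. Lcn2, which binds bacterial iron carriers, had 116, 141, 25.3, 26.3 and 10.3 TPM, with mice 1 and 2 high and mouse 5 lowest. Orm1, an acid glycoprotein, averaged 2165 ± 1418 TPM and Hp, the haemoglobin-binding haptoglobin, 2142 ± 1295 TPM. Orm2, a relative of Orm1, had 109, 242, 40.3, 59.7 and 68.5 TPM and an SD of 0.98. Serpina3n, an inhibitor of leukocyte proteases, had 632, 119, 185, 70.7 and 43.3 TPM, an SD of 1.47, and was highest in mouse 1, not in mouse 2. S100a8 and S100a9, given above, were likewise highest in mouse 2 but lowest in mouse 1; what they have to do with the serum amyloid values was not tested.

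Hepcidin had an order of its own. Hamp on chromosome 7 from 30942368 to 30944032, the hormone that closes iron export, had 68.99, 179, 949, 183 and 895 TPM in mice 1 to 5, an SD of 1.64 with a jackknife SE of 0.38. Its paralogue Hamp2 had 69.8, 56.7, 388, 64.9 and 207 TPM, an SD of 1.22. Mice 3 and 5 were high for both, and the other 3 mice lay below them. The iron storage and handling list had 7 members with a mean of at least 5 TPM. Of these, 5 were highest in mouse 1 and 2 in mouse 3. Among all genes at that level, 61.6% were highest in mouse 1 and 12.1% in mouse 3. The 2 members that were highest in mouse 3 were Slc40a1, the iron exporter ferroportin, and Hfe, a regulator of hepcidin. Their SDs were 0.22 and 0.08. Ftl1, the ferritin light chain, had 3360.0, 1539, 2969, 2156 and 3107 TPM, Fth1, the heavy chain, 2909, 1555, 2213, 1988 and 2086 TPM, and Tmprss6, a protease that represses hepcidin, 122, 20.8, 66.4, 29.6 and 26.9 TPM. The ferritin genes ranged within 2.18-fold and Tmprss6 followed the order of mouse 1 and mouse 3. The 2 hepcidin genes share 128 of the 31-base words, 33.7% of those of Hamp.

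Cholesterol synthesis enzymes varied with mouse 1 highest or next to highest for the most variable ones. Of 22 members with a mean of at least 5 TPM, 6 were variable, 2 without mouse 1, 3 after GC and length bins and 3 after the median-ratio scaling, against 6.7%, 1.59%, 1.52% and 4.32% of all genes, and their median SD was 0.82 against 0.45 over all genes. Sqle, squalene epoxidase, had 17.1, 9.11, 1.83, 3.65 and 1.05 TPM, an SD of 1.30. Fdps, which makes farnesyl diphosphate, had 93.5, 41.6, 16.02, 17.6 and 10.1 TPM, an SD of 1.23. Idi1, which isomerises the isoprene unit, had 72.7, 119.9, 23.4, 41.9 and 21.2 TPM, an SD of 1.04, and was highest in mouse 2. All 3 were lowest in mouse 5. In fatty acid synthesis, 4 of 15 were variable, against 6.7% of all genes, and none under the other 3 settings: Fads2, a desaturase of polyunsaturated fatty acids, had 392, 34.98, 133, 60.9 and 38.5 TPM, and Srebf1, the lipogenic regulator, 38.6, 3.89, 16, 4.24 and 4.94 TPM. Both were highest in mouse 1 and next in mouse 3.

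Metallothioneins, zinc-binding proteins induced by metals and glucocorticoids, split the mice as Lcn2, Sqle, Fdps and Idi1 did above. Mt1 had 338, 259, 79.8, 91.8 and 83.2 TPM and Mt2 had 154, 128, 27.04, 38.8 and 26.5 TPM, with mice 1 and 2 together above mice 3, 4 and 5. The SD was 0.99 for Mt1 and 1.21 for Mt2, and 1.05 for Mt2 without mouse 1. Rgs16, a regulator of G protein signalling, had 34.95, 1.17, 14.9, 2.03 and 1.67 TPM, an SD of 1.81, high in mice 1 and 3. Fgf21, a hormone of fasting, had 25.7, 4.58, 3.94, 6.76 and 3.75 TPM, high in mouse 1 alone.

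**Figure D5:**
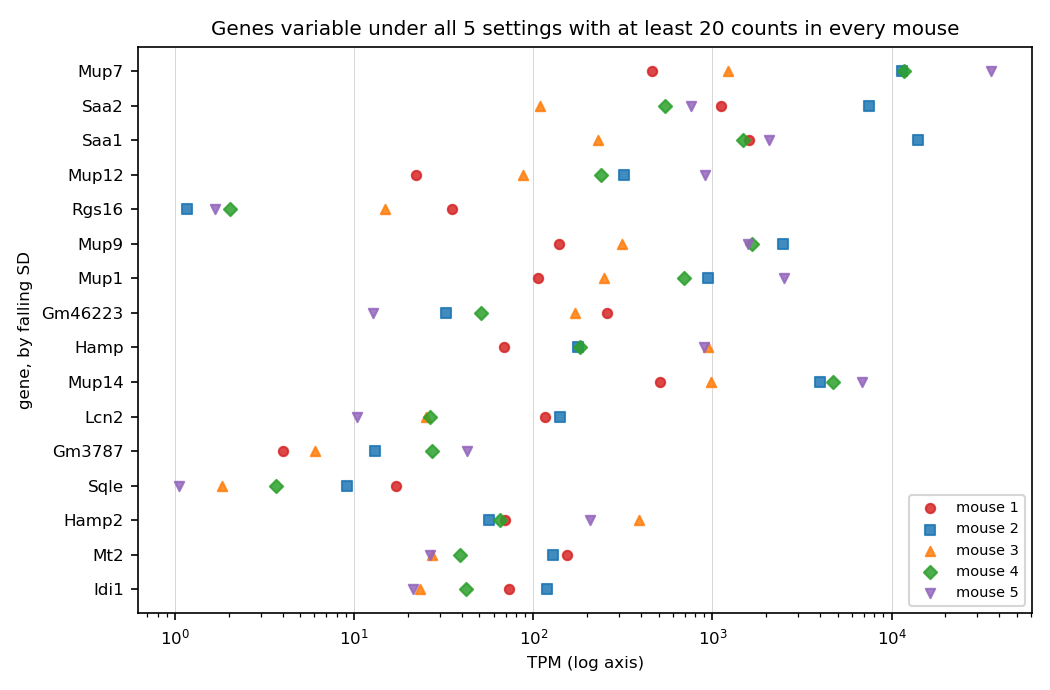
TPM (log axis) in each vehicle mouse of the 16 genes whose SD was at least 1 under all 5 settings and that had at least 20 counts in every mouse, 14 of them with an assigned name. Urinary proteins run from mouse 1 up to mouse 5 or 2, serum amyloid A is highest in mouse 2, and hepcidin is highest in mice 3 and 5.

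Genes that change with the hour of day or with handling before sampling were mostly highest in mouse 1, as were 61.6% of all 5720 genes. With a mean of at least 5 TPM, this held for 5 of 7 clock genes and 4 of 4 immediate early genes. It held for 7 of 11 fasting and glucocorticoid genes. Of 7 clock genes with a mean of at least 5 TPM, 3 were variable, 2 without mouse 1 and none after GC and length bins or the median-ratio scaling, where 6.7%, 1.59%, 1.52% and 4.32% of all genes were. Tef, a clock output factor, had 70.7, 6.59, 39.4, 10.8 and 7.83 TPM and Nr1d1, a repressor of the clock, 35, 4.14, 23.3, 6.87 and 3.38 TPM, each highest in mouse 1 and next in mouse 3. Of the immediate early genes, Zfp36, which destabilises cytokine mRNAs, had 38.8, 5.90, 23.2, 6.92 and 4.30 TPM in the same order. The fasting and glucocorticoid list had 5 of 11 variable, 2 without mouse 1, 3 after GC and length bins and 2 after the median-ratio scaling. The lists that follow had up to 2 variable members each, where 6.7% of all genes were variable. MHC class II had 1 of 5, Cd74, the invariant chain, with 141, 15.7, 80.3, 38.5 and 22.6 TPM. Interferon-stimulated genes had 2 of 17, with Iigp1 the highest at 213, 275, 175, 168 and 144 TPM. Without mouse 1, after GC and length bins and after the median-ratio scaling, none of the MHC class II or interferon-stimulated genes was variable. None of 6 matrix genes was variable, and Fn1, fibronectin, had 153, 65.7, 114, 50.3 and 39.9 TPM. Pericentral hepatocyte genes had none of 12 and periportal genes 1 of 14, Cyp2f2, an oxidase of small aromatic compounds, with 336, 53.9, 289.6, 83.9 and 77.8 TPM. The order of mouse 1, then mouse 3, then the others held for Cd74, Fn1 and Cyp2f2 alike, the order of 54.4% of all genes.

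By the rule of highest SD, 25 named genes were singled out, and 11 of them had under 20 estimated counts in at least 1 mouse. Rps13-ps2, a processed pseudogene of a ribosomal protein, had 0, 63.4, 6.20, 102 and 65.2 TPM, an SD of 2.84. Mpc1-ps had 62.6, 0, 0.0158, 7.46 and 0.00226 TPM, Tmed2b 19.1, 0, 17, 15.6 and 0.00613 TPM and Zfp969, a zinc finger gene, 0.19, 43.7, 13.4, 31.7 and 33.6 TPM. Ighj3 and Trbj1-1 are joining segments of antigen receptors of 48 bases, whose TPM rest on a few reads: the mean estimated count was 1.0 for Ighj3 and 1.2 for Trbj1-1. Ugt1a8, a glucuronosyltransferase sharing exons with its neighbours, was listed at 0 in mouse 1 and at 18.6, 0.0986, 3.06 and 7.59 TPM in mice 2 to 5. How the estimator divided reads among such copies was not tested. Among the remaining ones, Furin, a protease that activates precursors, had 62.8, 4.46, 37.3, 7.67 and 4.41 TPM, Bgn, the proteoglycan biglycan, 82.2, 9.56, 48.3, 14.6 and 6.68 TPM, and Eif4ebp2, a repressor of translation, 43.6, 4.04, 21.3, 6.18 and 3.06 TPM. These followed mouse 1 and mouse 3, and after GC and length bins their SDs were 0.82, 0.95 and 0.73.

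Of the 10 steadiest genes above a mean of 50 TPM, Eif3k varied least. Eif3k, of a translation initiation factor, had 76.5, 76.2, 77.99, 75.4 and 77.9 TPM in mice 1 to 5, an SD of 0.021. Laptm4a, a lysosomal membrane protein, had 121, 122, 118, 120.0 and 113 TPM, Ndufab1, an acyl carrier and complex I subunit, 207, 214, 202, 220.4 and 222 TPM, and Ctsh, a lysosomal protease, 247, 257, 272, 269 and 272 TPM. The other members of the 10 were Btf3l4, Rer1, Ube2n, Hax1, Cbr1 and Nipsnap3b, with SDs of 0.059 to 0.070. Their steadiness belongs to the TPM scale: after the median-ratio scaling the SD of Eif3k was 0.50 and that of Laptm4a 0.49.

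The same spread was measured in the other 15 mice, around the mean of each group. A pooled SD of at least 1 was found for 63 of the 5720 genes (1.1%), and 41 genes passed in both sets, which is 10.7% of the 383 and 65.1% of the 63. Of the 25 named genes with the highest SD, 17 passed there too. These included Rps13-ps2, Mpc1-ps and Trbj1-1, each at 0 estimated counts in at least 1 vehicle mouse, and Mup copies whose reads are hard to assign. For such genes, repeated spread may be counting or assignment error, which was not tested. Among the well-counted ones, the pooled SD in the other 15 mice was 1.30 for Saa1, 1.41 for Lcn2, 1.08 for Hamp, 1.42 for Hamp2 and 1.05 for Rgs16, against 0.95 for Sqle, 0.92 for Idi1 and 0.83 for Mt2. Over all 5720 genes the median SD was 0.45 in vehicle mice, 0.33 in rosuvastatin mice, 0.24 in GGOH mice and 0.32 in mice given both, with 383, 94, 60 and 54 genes at 1 or more. Without mouse 1 the vehicle median was 0.34. The genes were chosen by their mean in the vehicle mice, so the groups are not on an equal footing, and the difference in spread was not tested. The 25 highest genes of the vehicle mice were also the 25 highest in GGOH mice, and 24 of them were in each of the other groups.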

How the data were processed

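Liver RNA of 5 vehicle mice was taken from the whole-series tables, chosen by title. Per the labels' protocols, poly(A) RNA was made into TruSeq libraries. The tools named in the submitters' processing notes are kallisto 0.44.0, bcl2fastq 2.19 and DESeq2, and the build named there is GRCm38. The annotation is not given in the sources used here. The authors deposited estimated counts per gene, not normalised, and TPM, which they scaled for length and depth. Named genes summed to 983735 to 993331 TPM per vehicle mouse, and shares are of that sum; an entry with no gene name (0.00802 to 0.0111% of counts) was left out. Estimated counts were 12947681 to 16776626 per library. The median gene between 5 and 10 TPM had 207 counts, but very short genes had few (a mean of 1.0 for Ighj3), and for those counting error is large. The 5 libraries are separate mice by title only, so the spread may be partly technical.

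Spread was the SD of log2(TPM + 1) over mice, for genes with a mean of at least 5 TPM, with a jackknife SE over mice. A gene had 1 mouse apart where Dixon's ratio passed 0.71. Positions, GC content and length came from GENCODE M21 (GRCm38) by symbol (34161 of 34933 matched, and 98.4% of genes with a mean of at least 5 TPM). GC content and length are those of the longest transcript, protein-coding ones first, which need not be the one expressed. Rpl9, for example, was assigned 2690 bases and had an SD of 0.76, or 1.28 after GC and length bins. How far this choice shaped the binned values was not tested. The SD rule alone was tested on simulated counts. Genes there were drawn independently, without the shifts by GC content and length seen in these libraries. Dixon's ratio, the median-ratio scaling and the bins were not tested that way. Alternatives were another pseudocount, other filters, median-ratio scaling, TPM without mitochondrial transcripts, CPM with TMM or RLE factors (edgeR 4.0.16, R 4.3.3, prior count 1), other measures of spread and leaving out each mouse; bins of GC content and length (10 by 10) and the intersection of 5 settings were added after the data were seen. Named genes were the 25 highest, the 25 most variable with an assigned name, the 10 steadiest above 50 TPM, the 5 highest outside the lists, and up to 4 highest and 4 most variable members of each list; genes of the intersection (such as Hamp2 and Idi1), Ahsg, Pparg, Slc40a1, Hfe, Tmem150a and Pglyrp2 outside these ranks were picked with their values in view. A few genes that this rule names are not reported here. The members and all lists were chosen with earlier results of these data known. Python 3.11.15, numpy 2.4.6 and pandas 2.3.3 were used.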

Additional observations from a re-analysis of the deposited data

Results flagged for a closer look

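Of 126 values examined for a mouse apart from the other 4, 8 were, where chance at 1 in 20 gives 6.3. The values share the same libraries and some are of genes picked by their spread, so 6.3 is a rough guide only. Mouse 1 had the highest total of estimated counts, 16776626. It also stood apart, on the high side, with 0.416% of TPM for fatty acid synthesis and desaturation, with 0.640% for the obesity and steatosis list, and with 0.000358% for the mesothelial markers, none of which reached a mean of 5 TPM. Ighj3 was at 27.9 TPM in mouse 1 and listed at 0 in the other 4, on a mean of 1.0 estimated counts. In mouse 2, acute phase proteins held 3.31% of TPM, and Ptges3-ps, a processed pseudogene, was low at 0.779 TPM. Btf3l4, among the 10 steadiest genes, was high in mouse 5 at 65.9 TPM, within a whole range of 1.11-fold. Over all 5720 genes, 109 (1.91%) had 1 mouse apart. Dixon's ratio is small where a second mouse lies near the outer one, and in 54.4% of all genes mouse 1 was highest and mouse 3 next. Genes also share their libraries, so this count cannot be set against 1 in 20. Of the 109 genes, 37 were high and 29 low in mouse 1.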

How the results depend on the processing

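Leaving out the mitochondrial transcripts, or using shares of estimated counts, gave 52 or 63 genes for 50% of the total, 41.1 or 37.3% for the 25 highest genes and 71.2 or 70.1% for the function lists; the mitochondrial share of counts was 13.6%. The number of variable genes was 582 with a pseudocount of 0.1, 125 above 20 TPM, 247 after median-ratio scaling, 599 without mitochondrial transcripts, 92 by a coefficient of variation of at least 1, 17 by edgeR's biological coefficient of at least 0.7, 87 after GC and length bins (chosen after seeing the data), and between 91 (without mouse 1) and 590 (without mouse 4) when a mouse was left out. Genes with 1 mouse apart numbered 213 above 1 TPM, 49 above 20 TPM, 166 after median-ratio scaling and 196 after GC and length bins. The median SD was 0.29 after GC and length bins and 0.34 to 0.47 when a mouse was left out, lowest without mouse 1. The cause of these changes was not tested. Of the SDs of the 25 most variable named genes, 56 of 73 values under the other alternatives moved by less than their jackknife SE. No paired analysis was possible because the results describe 1 group.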

Other observations

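The obesity and steatosis list had 21 of its 24 genes in the table at a mean of at least 5 TPM, and 3 were variable, where 6.7% of all 5720 genes were. Its highest members were the desaturase Scd1, Apoa4, an apolipoprotein of lipid-loaded liver, and Cyp4a14, a fatty acid hydroxylase under PPAR-alpha. Apoa4 had 1525, 772, 915, 619.6 and 523 TPM in mice 1 to 5. Cyp2b9, a female-biased cytochrome P450, had 161, 22.7, 121, 28.9 and 32.1 TPM, high in mice 1 and 3, and an SD of 1.28 (0.80 after median-ratio scaling). Pparg, a driver of fat storage, had 18.5, 3.28, 11.97, 4.96 and 3.67 TPM in the same order. Among the chemokines, Cxcl12, made by stromal cells, was the highest with 189, 83.6, 137, 89.8 and 80.3 TPM. Cxcl1, which attracts neutrophils, had 10.3, 36.1, 17.2, 19.5 and 9.96 TPM and was highest in mouse 2, the mouse with the most Saa1 (14091 TPM) and S100a8 (26.8 TPM). Of 18 cell cycle genes, 2 reached a mean of 5 TPM, Pcna, the clamp of DNA polymerase, with 18.4, 15.7, 18.6, 17.7 and 13.6 TPM, and Tyms, which makes thymidylate, with 7.25, 6.61, 5.87, 7.67 and 5.96 TPM.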
